A study of Mus musculus with 20 samples.

Results

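The TRAV4 family comprised the T cell receptor (TCR) α chains of peripheral CD8+ T cells that were built with a conventional TRAV4 gene. A clone, meaning a distinct CDR3 nucleotide sequence with its V and J genes in a library, belonged to the family when its CDR3 was in frame, held no stop codon and listed a TRAV4, TRAV4D or TRAV4N gene first among its V genes. TRAV4-4-DV10, the related gene that can also join δ chain segments, was not a member. In 17 mice, 3649 of 212832 in-frame TCRα clones were members, and 3507 other clones used TRAV4-4-DV10. Members used 6 genes, with 1749 clones of TRAV4D-4, 736 of TRAV4N-3, 472 of TRAV4-3, 346 of TRAV4D-3, 323 of TRAV4-2 and 23 of TRAV4D-2.

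The α chain of the TCR is assembled in developing thymocytes by joining a V gene (TRAV) to a J gene (TRAJ). The join creates the third complementarity-determining region (CDR3), which contacts the peptide that an MHC molecule presents, and bases can be trimmed from or added to the ends of the segments. TRAV genes lie upstream of the TRAJ genes, which are numbered downward along the chromosome, so that the TRAJ genes with the largest numbers are the nearest to the V genes. Rearrangement of the locus can proceed in rounds, in which a V gene farther away replaces the first join with a join to a TRAJ gene farther along. In the C57BL/6 genome part of the TRAV cluster is duplicated, and the letters D and N mark the duplicated copies.

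CD8+ T cells of WT mice were compared with those of 3 strains, BIT, β5t-KO and β5i-KO, to ask how the proteasome subunits of epithelial and hematopoietic cells bear on the T cells that are selected. β5i-KO mice lack β5i (encoded by Psmb8), the catalytic subunit of the immunoproteasome of hematopoietic cells, and β5t-KO mice lack β5t (encoded by Psmb11), the subunit of the thymoproteasome of cortical thymic epithelial cells. All mice were on the C57BL/6 background. BIT mice, for which a single knock-in line was used unless stated otherwise, are homozygous for an allele in which the coding sequence of β5t replaces β5i at Psmb8, so that β5t is made where β5i would be. From each male mouse, 9 to 12 weeks old, 1000000 TCRβ-high CD4-CD8+ cells were sorted, from lymph nodes according to the labels and from lymph nodes and spleens according to the protocol. There were 5 β5i-KO mice and 4 mice of each other genotype, each an individual animal. WT replicate 5, β5t-KO replicate 5 and BIT replicate 3 were left out by the rule that chose the members.

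The libraries held 1983032 to 8480570 TCRα reads from 14772 to 602397 unique molecules, and 656 to 28642 in-frame clonotypes. The number of TRAV4 clonotypes followed that of in-frame clonotypes, with 186 to 478 TRAV4 clonotypes per BIT mouse, 26 to 315 per WT mouse, 66 to 467 per β5i-KO mouse and 9 to 126 per β5t-KO mouse. The 9 TRAV4 clonotypes of β5t-KO replicate 2 were the fewest of any mouse, although its library held 6827513 reads and a median of 76 molecules per TRAV4 clonotype. The library with the fewest molecules, 14772, was that of β5i-KO replicate 4, where 67.6% of TRAV4 clonotypes rested on a single molecule. TCR libraries measure neither Psmb8, Psmb11 nor CD8 markers, which leaves the labels unchecked here. The invariant TCRα joins of other T cells that a sort could hold were rare, at 0% to 0.0485% of clonotypes for the NKT join (TRAV11 or TRAV11D with TRAJ18) and 0% to 0.152% for the MAIT join (TRAV1 with TRAJ33).

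Because the family is defined by its V gene, its germline 3′ ends show what all members bring to the CDR3. They are given here by gene name from the GENCODE M39 transcripts, with the bases that encode the start of the CDR3 in capitals.
TRAV4-3, TRAV4D-3, TRAV4D-4 and TRAV4N-3: tcaggcacttacttcTGTGCTGCTGAGG
TRAV4-2: tcaggcacttacttcTGTGCTGTTGAGG
TRAV4D-2: tcaggaacttacttcTGCGCTGCTGAGG
The capitals span 13 bases in each gene, where the annotated transcripts end, and encode Cys-Ala-Ala-Glu (CAAE), or Cys-Ala-Val-Glu (CAVE) in TRAV4-2. Genomic bases beyond the transcripts were not read, so the germline ends may be longer than shown. In 23.3% of TRAV4 clones the V alignment ran past base 13 of the CDR3, and the next base was C in 93.9% of these. TRAV4-4-DV10 shares the end of TRAV4-3. The annotated transcripts of Trav4d-3 and Trav4n-3 were identical to each other, as were those of Trav4d-4 and Trav4n-4, so assignments among these copies are uncertain. Among TRAV4D-3 clones 93.9%, and among TRAV4N-3 clones 42.7%, listed more than 1 V gene, against 10.1% for TRAV4D-4, 0.929% for TRAV4-2 and 0.424% for TRAV4-3. TRAV4N-4 was never listed first, so its clones cannot be told from those of TRAV4D-4. The Trav4d-2 transcript, annotated as a pseudogene, held 1 in-frame stop codon located 21 codons before the CDR3 cysteine, outside the region the clones report.

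All genes of the family lie on chromosome 14 (GRCm38.p6, RefSeq). From far to near the TRAJ genes, they are Trav4d-2 (52710917 to 52711402), Trav4d-3 (52899972 to 52900470), Trav4d-4 (52990889 to 52991389), Trav4n-3 (53210906 to 53211407), Trav4-2 (53418388 to 53418873) and Trav4-3 (53598911 to 53599410), followed by Trav4-4-dv10 (53683677 to 53684177). Trav4d-2 lies 1444 kb before Traj61, the first TRAJ gene, and Trav4-3 lies 556 kb before it.

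No difference between genotypes in the share of TRAV4 in the CD8+ T cell repertoire passed the test. The family made up 1.67%, 1.89%, 2.03% and 1.65% of in-frame clonotypes in the BIT mice and 1.55%, 1.37%, 1.54% and 1.26% in the β5t-KO mice. Its share was 1.00%, 1.47%, 1.80% and 1.71% in the WT mice and 1.84%, 1.53%, 1.73%, 1.62% and 1.42% in the β5i-KO mice. All BIT mice lay above all β5t-KO mice, whereas the WT and β5i-KO mice overlapped with both. The mean share was 1.81% ± 0.180 (SD, n = 4) in BIT, 1.63% ± 0.166 (n = 5) in β5i-KO, 1.496% ± 0.356 (n = 4) in WT and 1.43% ± 0.140 (n = 4) in β5t-KO mice. Over all mice TRAV4 ranked 13 of 28 TRAV subgroups, with a mean of 1.59%.

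**Figure D1:**
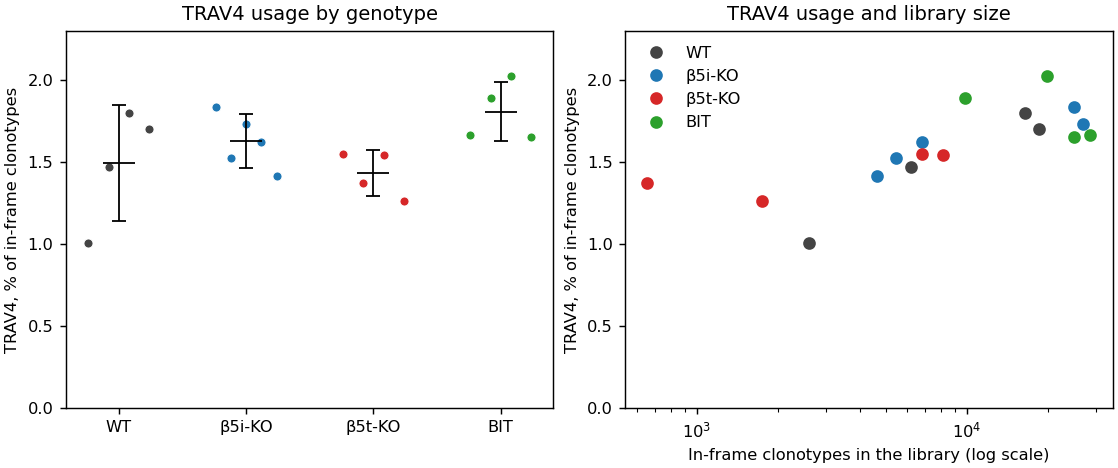
Share of TRAV4 among in-frame clonotypes (%) for each mouse by genotype (left; points are mice, horizontal bars the mean, error bars the SD) and against the number of in-frame clonotypes in the library (right; log scale). The 4 BIT mice lay between 1.65% and 2.03%, above the 4 β5t-KO mice at 1.26% to 1.55%, and smaller libraries tended to have lower shares.

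The counts of clonotypes were tested with edgeR's quasi-likelihood test over 25 TRAV subgroups, with Benjamini-Hochberg adjustment. The adjusted p of TRAV4 in edgeR was above 0.05 in each of the 5 comparisons. The log2 fold change of TRAV4 was -0.09 ± 0.16 (SE) in β5t-KO against WT mice (edgeR adjusted p = 0.717), where 16% of subgroups passed the test. This value was -0.22 with TMM, -0.18 with DESeq2, -0.25 with molecules, -0.17 with reads or without WT replicate 1, and -0.00042 without WT replicate 3. It was 0.18 ± 0.13 in BIT against WT mice (edgeR adjusted p = 0.264), where 12% passed, and the median log2 fold change over the 25 subgroups was 0.19. With TMM it was 0.0085 and with DESeq2 0.035, and without WT replicate 1 or BIT replicate 4 it was 0.0999 and 0.115. For BIT against β5t-KO mice it was 0.27 ± 0.16 (edgeR adjusted p = 0.238), where 12% passed, and 0.498 with molecules. For β5i-KO against WT mice it was 0.07 ± 0.13 (edgeR adjusted p = 0.782) and turned to -0.065 with TMM and -0.037 with DESeq2 size factors, which set the median subgroup near 0. It was 0.12 ± 0.12 for BIT against β5i-KO mice (edgeR adjusted p = 0.747), but 0.07 with TMM and DESeq2, 0.23 with molecules and 0.052 without BIT replicate 4, and 0% of subgroups passed in both comparisons with β5i-KO mice. The 3 comparisons with WT share their control mice, as do the 3 comparisons with BIT mice.

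The share of TRAV4 moved with the number of clonotypes recovered. Over the 17 mice the share and the number of in-frame clonotypes had a Pearson correlation of 0.677 and a Spearman correlation of 0.831, both given as descriptions because the share is a fraction of that number and the genotypes differ in it. In-frame clonotypes averaged 4349 in β5t-KO mice and 20762 in BIT mice. With each library thinned to 14772 molecules, the log2 fold change of TRAV4 in BIT against β5t-KO mice was 0.34 (edgeR adjusted p = 0.196). It was 0.27 without thinning. Thinning sets the number of molecules equal but not that of clonotypes, and the part of the latter in the order of these 2 genotypes was not tested. Measured in reads, TRAV4 took 1.32% ± 0.136 (SD, n = 4) of in-frame reads in β5t-KO mice and 1.68% ± 0.218 (n = 4) in BIT mice. These groups did not overlap (exact permutation test, two-sided, p = 0.0286, adjusted p = 0.143 over the 5 comparisons), and 0.0286 is the smallest p that 4 mice against 4 can give. Across all 4 genotypes the share of reads gave an adjusted p of 0.275 (permutation test of the F ratio, 100000 resamples).

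Among the other subgroups, the shares of TRAV8, TRAV4-4-DV10 (the TRAV4/DV entry) and TRAV1 were the most like that of TRAV4 across the 17 mice. Their Pearson correlations with TRAV4 were 0.711, 0.654 and 0.516, and their Spearman correlations 0.706, 0.525 and 0.331. All of these shares come from the same libraries and share their depth. TRAV4-4-DV10 took 1.73% ± 0.114 (SD, n = 4) of clonotypes in BIT mice and 1.18% ± 0.269 (n = 4) in WT mice, with 1.52% ± 0.424 (n = 4) in β5t-KO and 1.63% ± 0.259 (n = 5) in β5i-KO mice between them.

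Within the family TRAV4D-4 was on average the most used gene in every genotype, with a mean of 45.3% ± 7.63 (SD, n = 17) of a mouse's TRAV4 clonotypes. TRAV4N-3 followed at 20.5% ± 4.20, then TRAV4-3 at 15.5% ± 5.61. TRAV4D-3 stood at 9.11% ± 2.301, and with TRAV4N-3, whose annotated sequence is the same, it made up 29.7% of all members. TRAV4D-2, the annotated pseudogene, had an in-frame clonotype in 11 of 17 mice and made up 0.630% of all members.

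TRAV4-3, the member nearest the TRAJ genes, had its highest mean share of the family in β5t-KO mice, a share that was not itself tested. It made up 16.04%, 33.3%, 18.3% and 22.7% of TRAV4 clonotypes in the β5t-KO mice and 15.4%, 14.3%, 12.9% and 12.7% in the WT mice. It made up 12.97%, 13.98%, 10.8% and 13.7% in the BIT mice, and 11.8%, 19.3%, 10.9%, 11.7% and 12.1% in the β5i-KO mice. All β5t-KO mice lay above all WT and BIT mice, and β5i-KO replicate 2 lay within their range. The highest value, from β5t-KO replicate 2, rests on 3 of 9 clonotypes. As a share of the whole repertoire TRAV4-3 did not pass the test, with a log2 fold change of 0.36 ± 0.28 (SE) in β5t-KO against WT mice (edgeR adjusted p = 0.509) and -0.29 ± 0.26 in BIT against β5t-KO mice (edgeR adjusted p = 0.512).

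TRAV4-2 stood at the other end in β5t-KO mice, with 5.98% ± 4.60 (SD, n = 4) of the family's clonotypes against 12.5% ± 5.34 (n = 4) in WT, 9.40% ± 1.92 (n = 4) in BIT and 9.00% ± 2.14 (n = 5) in β5i-KO mice. Its 4 values in β5t-KO mice were 5.66%, 11.1%, 7.14% and 0%, which overlapped with those of the other genotypes. Its log2 fold change was -0.79 ± 0.43 (SE) in β5t-KO against WT mice (edgeR adjusted p = 0.275) and 0.82 ± 0.40 in BIT against β5t-KO mice (edgeR adjusted p = 0.220). For TRAV4N-3 the log2 fold change was 0.50 ± 0.21 in BIT against WT mice (edgeR adjusted p = 0.155) and 0.26 ± 0.28 in β5t-KO against WT mice (edgeR adjusted p = 0.602).

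In all, 5 of the 6 genes met the filter for the test over 90 TRAV genes, and edgeR called 0 of these 5 in any comparison. Among all 90 genes the test called 7.78% in β5t-KO against WT, 2.22% in BIT against WT, 14.4% in BIT against β5t-KO, 1.11% in β5i-KO against WT and 0% in BIT against β5i-KO mice. Before adjustment, edgeR gave a p under 0.05 for 1 member (TRAV4N-3) in BIT against WT and 1 member (TRAV4-2) in BIT against β5t-KO mice, and DESeq2 called 0 members. The gene left out by the filter, TRAV4D-2, had 0 of 17395 in-frame clonotypes in the β5t-KO mice, which allows a share of up to 0.0172%. In the BIT mice it had 11 of 83049 (0.0132%), so a difference was not detectable with these numbers of clonotypes. When reads or molecules were counted in place of clonotypes, TRAV4D-2 met the filter and was called in BIT against β5t-KO mice (edgeR adjusted p = 0.0375 for reads and 0.0364 for molecules), where 10.1% and 12.1% of 99 TRAV genes were called. With no in-frame clonotype in β5t-KO mice, TRAV4D-2 met that filter only through the other genotypes.

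**Figure D2:**
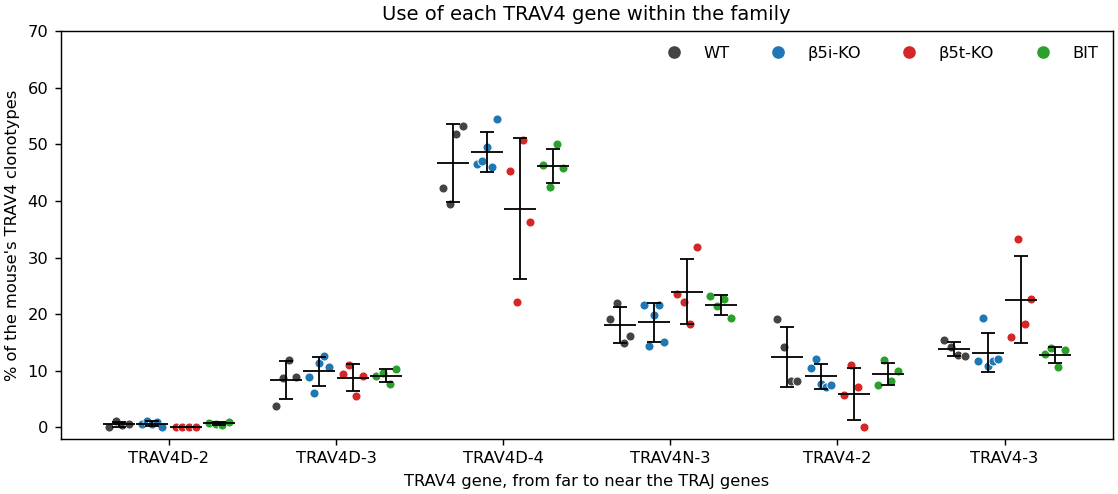
Share of each TRAV4 gene (%) among a mouse's TRAV4 clonotypes, with the genes ordered from far to near the TRAJ genes; points are mice, horizontal bars the mean of a genotype and error bars the SD. TRAV4D-4 had the highest mean in every genotype, and TRAV4-3 lay at 16.04% to 33.3% in β5t-KO mice against 12.7% to 15.4% in WT mice.

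The genes of the family joined different parts of the TRAJ cluster. Pooled over mice, the mean TRAJ number was 22.0 for TRAV4D-2, 21.1 for TRAV4D-3, 22.2 for TRAV4D-4, 21.2 for TRAV4N-3 and 22.7 for TRAV4-2, but 34.1 for TRAV4-3, and 38.0 for TRAV4-4-DV10. The step thus came between TRAV4-2, 736 kb before the first TRAJ gene, and TRAV4-3, 556 kb before it, while the genes farther away had means close to that of TRAV4-2. TRAJ genes numbered 40 or more made up 32.8% of TRAV4-3 clones and 50.96% of TRAV4-4-DV10 clones, against 8.42% to 9.54% in the other 5 genes. TRAJ genes numbered under 20 showed the opposite order, at 8.05% for TRAV4-3, 7.19% for TRAV4-4-DV10 and 34.8% to 45.4% for the others.

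The order held within mice. The mean TRAJ number of TRAV4-3 was above that of the other TRAV4 genes in 16 of 17 mice, and that of TRAV4-4-DV10 was above the same genes in 17 of 17 mice and above TRAV4-3 in 15 of 17. The exception for TRAV4-3 was β5i-KO replicate 5, where 8 TRAV4-3 clonotypes had a mean TRAJ number of 19.1. By genotype, the 4 values of TRAV4-3 were 30.5, 37.8, 33.8 and 32.6 in WT mice and 34.5, 45.7, 35.5 and 33.4 in β5t-KO mice. This comparison of genes was made after their values had been seen and is given without a test.

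**Figure D3:**
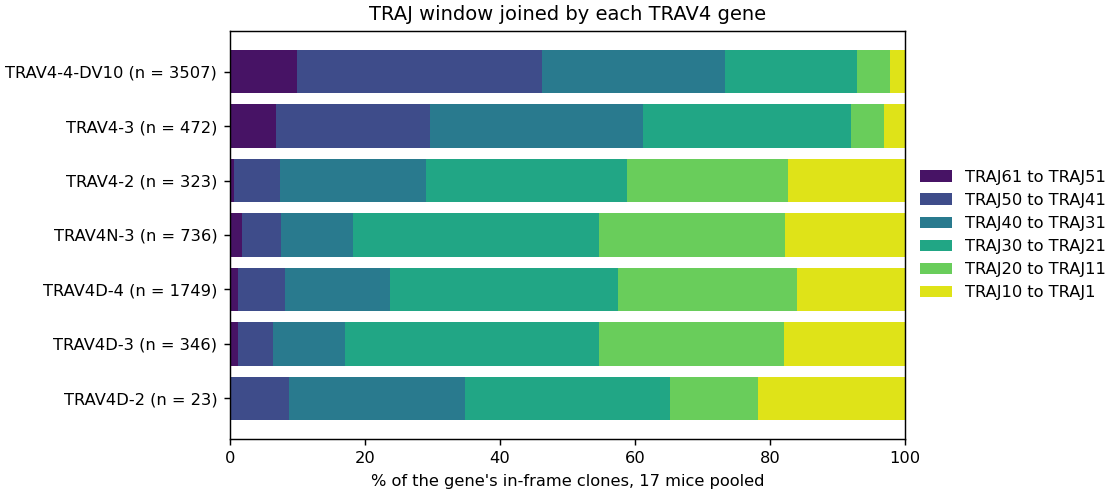
Share of each gene's in-frame clones (%; 17 mice pooled) that joined each window of TRAJ genes, from TRAJ61 to TRAJ51, nearest the V genes, to TRAJ10 to TRAJ1, with genes ordered from far (bottom) to near (top). The windows above TRAJ30 made up 61.2% of TRAV4-3 clones and 73.3% of TRAV4-4-DV10 clones, but at most 34.8% of the others.

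TRAJ22, TRAJ26, TRAJ21, TRAJ9, TRAJ30 and TRAJ12 were the partners with the highest mean share of TRAV4 clonotypes, at 7.64% ± 3.93 (SD, n = 17), 5.51% ± 3.17, 5.35% ± 2.51, 5.27% ± 3.21, 5.14% ± 2.22 and 5.14% ± 3.12. TRAJ22 and TRAJ26 were each more frequent in TRAV4 than in the remaining repertoire of the same mouse in 11 of 17 mice, TRAJ21 and TRAJ9 in 14 of 17, TRAJ30 in 8 of 17, and TRAJ12, named after its values were seen, in 15 of 17. TRAJ9 made up 7.50% ± 1.95 (n = 5) of TRAV4 clonotypes in β5i-KO mice, above the 3.21% ± 0.131 of their remaining repertoire in 5 of 5 mice, and 2.64% ± 3.24 (n = 4) in β5t-KO mice. TRAJ30 made up 7.51% ± 2.98 (n = 4) of TRAV4 clonotypes in β5t-KO mice and 4.37% to 4.45% on average in the other genotypes.

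Over 687 pairs of TRAV subgroup and TRAJ gene, 28 TRAV4 joins were tested and edgeR called 0 of them in each comparison. The share of all pairs called was 2.47% in β5t-KO against WT, 1.75% in BIT against β5t-KO, 0.291% in BIT against WT, 0.146% in β5i-KO against WT and 0% in BIT against β5i-KO mice. Before adjustment, p in edgeR was under 0.05 for 2, 2, 1, 1 and 1 of the 28 joins in these comparisons in the same order, and DESeq2 called 0. The median log2 fold change of the 28 joins was -0.16 in β5t-KO against WT mice, beside -0.0032 over all pairs, and 0.19 in BIT against β5t-KO mice, beside 0.10.

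Fewer in-frame than out-of-frame rearrangements used TRAV4, relative to all rearrangements of each kind. A T cell can carry an out-of-frame join on its other allele, which yields no receptor and is not subject to selection by its own product. TRAV4 took 3.31% ± 0.711 (SD, n = 17) of out-of-frame clonotypes and 1.59% ± 0.248 of in-frame clonotypes, a log2 ratio of -1.09 ± 0.29 that was below 0 in 17 of 17 mice. Non-productive clones, out of frame or with a stop codon, made up 17.7% ± 3.51 of TRAV4 clones and 9.33% ± 0.960 of the others, with TRAV4 higher in 17 of 17 mice, also when TRAV4D-2 was left out (15.99% ± 3.39). The log2 ratio did not differ across genotypes beyond the spread between mice (adjusted p = 0.436, permutation test of the F ratio), with a mean of -0.88 in BIT, -1.17 in WT, -1.11 in β5t-KO and -1.18 in β5i-KO mice. In the β5t-KO mice it rests on 1 to 33 out-of-frame TRAV4 clonotypes.

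The genes differed widely in this respect. Of all clones listed for a gene, 78.9% were non-productive for TRAV4D-2, 36.7% for TRAV4-2, 28.2% for TRAV4-3, 12.5% for TRAV4D-4 and 12.5% for TRAV4-4-DV10. TRAV4D-3 and TRAV4N-3, summed as identical copies, stood at 7.28%. The annotated pseudogene thus had the highest share of the 6 genes, with 23 in-frame clones of 109. Non-productive was judged from the CDR3 alone. The annotated stop codon of Trav4d-2 lies before the CDR3, so its 23 in-frame clones need not yield a receptor.

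CDR3s of TRAV4 differed from those of the remaining repertoire in all 4 measures taken. With both taken from the same mouse and averaged over 17 mice, TRAV4 CDR3s were shorter (13.35 ± 0.256 against 13.64 ± 0.104 residues, mean ± SD), joined TRAJ genes of lower number (24.7 ± 3.25 against 28.7 ± 0.957), more often lacked added bases (32.2% ± 5.03 against 26.5% ± 2.19 of clonotypes) and were less positively charged (-0.07 ± 0.142 against 0.47 ± 0.0244 net charges). Length was lower in 16 of 17 mice and charge in 17 of 17, while clonotypes without added bases were more frequent in 16 of 17. Sign-flip permutation tests (100000 resamples, two-sided) were adjusted over the 4 measures. The adjusted p of these permutation tests was 0.00024 for length, 0.00029 for TRAJ number, 0.0001 for clonotypes without added bases and 8e-05 for charge. All TRAV4 genes encode a glutamate at the start of the CDR3, so a lower net charge was favoured by the definition of the family. Added bases were counted between the V and J ends that the alignment of each clone reports, so that a base read as a mismatch within V or J was not counted.

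The charge difference lay at the position of the germline glutamate. Glutamate stood at position 4 of the CDR3 in 49.5% ± 6.48 (SD, n = 17) of TRAV4 clonotypes and 4.83% ± 0.581 of the others. With position 4 left out, the mean net charge was 0.512 ± 0.0988 in TRAV4 and 0.416 ± 0.0165 in the remaining repertoire, and TRAV4 was the lower in only 3 of 17 mice. By gene, glutamate was kept in 57.6% of TRAV4N-3, 56.1% of TRAV4D-3, 55.3% of TRAV4-3, 47.8% of TRAV4D-2, 46.5% of TRAV4D-4 and 38.7% of TRAV4-2 clones. The start CAVE, which the germline of TRAV4-2 encodes, was found in 37.8% of TRAV4-2 clones and at most 0.636% of clones of the other genes.

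**Figure D4:**
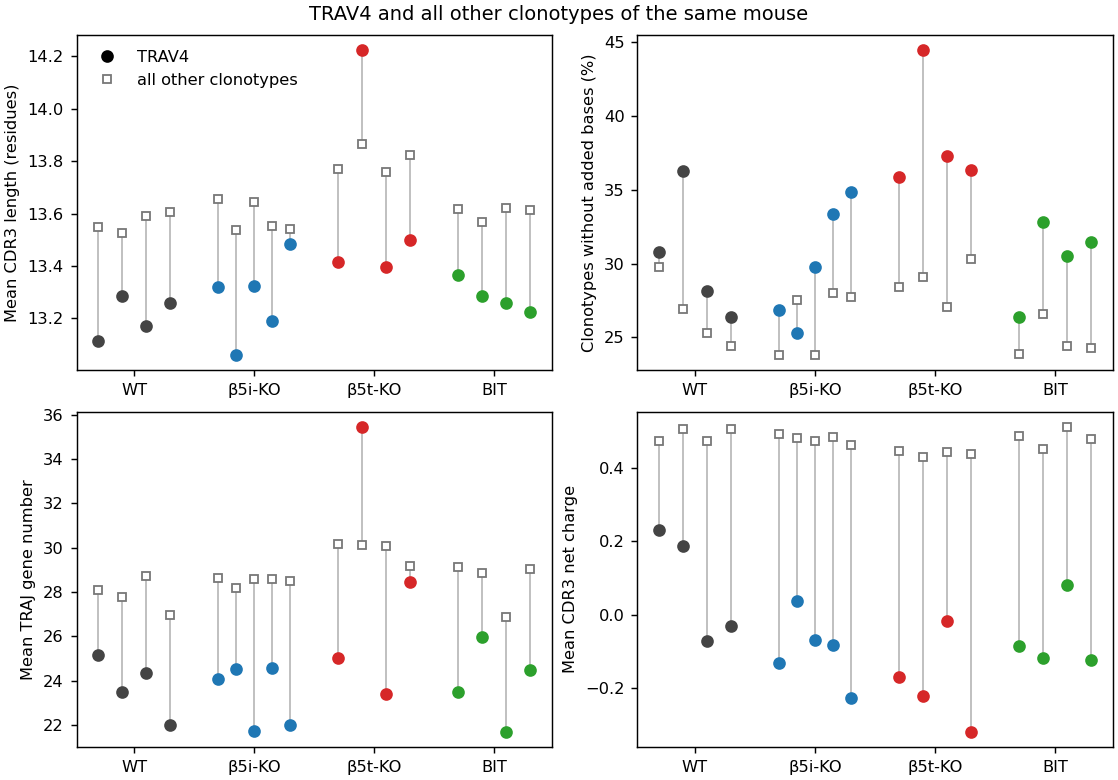
Mean CDR3 length (residues), clonotypes without added bases (%), mean TRAJ gene number and mean CDR3 net charge in each mouse, for TRAV4 clonotypes (filled circles) and all other clonotypes of the same mouse (open squares), joined by a line; vertical axes do not start at 0. TRAV4 lay below the remaining repertoire in charge in all 17 mice, and β5t-KO replicate 2, with 9 TRAV4 clonotypes, had the highest length at 14.2 residues.

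TRAV4 CDR3s had their highest mean length in β5t-KO mice. The mean length was 13.42, 14.22, 13.40 and 13.50 residues in the β5t-KO mice, 13.12, 13.29, 13.17 and 13.26 in the WT mice and 13.36, 13.28, 13.26 and 13.22 in the BIT mice. In the β5i-KO mice it was 13.32, 13.06, 13.33, 13.19 and 13.48 residues. All β5t-KO mice lay above all WT and BIT mice and overlapped with the β5i-KO mice. Across the genotypes the difference did not pass the test after adjustment over 6 measures (permutation test of the F ratio, p = 0.00919, adjusted p = 0.0541). It passed when β5i-KO replicate 2 or 5, or β5t-KO replicate 1 or 3, was left out (permutation tests, adjusted p = 0.0472, 0.0092, 0.0365 and 0.0232). The difference of β5t-KO from WT mice was 0.43 residues and that of BIT from β5t-KO mice was -0.35 residues, each with p = 0.0286, the smallest possible, and adjusted p = 0.0714 (exact permutation tests). Without β5t-KO replicate 2 these differences were 0.23 and -0.15 residues, and the adjusted p across genotypes was 0.207 (permutation test).

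The remaining repertoire moved the same way, from 13.57 ± 0.0364 (SD, n = 4) residues in WT to 13.80 ± 0.0504 (n = 4) in β5t-KO mice. The difference between TRAV4 and the remaining repertoire did not vary across genotypes beyond the spread between mice (adjusted p = 0.633, permutation test of the F ratio). The same held for TRAJ number (adjusted p = 0.498), clonotypes without added bases (0.187) and charge (0.187), all by the permutation test of the F ratio.

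Clonotypes without added bases made up 38.5% ± 4.02 (SD, n = 4) of TRAV4 clonotypes in β5t-KO mice, against 30.4% ± 4.32 (n = 4) in WT, 30.3% ± 2.78 (n = 4) in BIT and 30.02% ± 4.08 (n = 5) in β5i-KO mice. All β5t-KO mice, at 35.8% to 44.4%, lay above all BIT mice, at 26.4% to 32.8%, while WT replicate 2 reached 36.3%. The adjusted p across genotypes was 0.0541 (permutation test of the F ratio). The mean TRAJ number was 28.1 ± 5.35 (n = 4) in β5t-KO mice and 23.7 ± 1.35 (n = 4) in WT mice, with an adjusted p across genotypes of 0.102 (permutation test of the F ratio), and was 25.6 ± 2.59 in the 3 β5t-KO mice other than replicate 2. The mean net charge was -0.18 ± 0.126 (n = 4) in β5t-KO and 0.08 ± 0.152 (n = 4) in WT mice, with an adjusted p across genotypes of 0.102 (permutation test of the F ratio).

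Most TRAV4 CDR3s were private. The 3649 clones encoded 2513 distinct CDR3 amino acid sequences, of which 2035 (81.0%) were found in a single mouse, compared with 70.3% of the 88328 CDR3s of the remaining repertoire. The remaining repertoire holds many more clones, and its CDR3s counted as shared whichever of its V genes made them. The 2 shares therefore do not show TRAV4 CDR3s to be the more private. In all, 209 were found in 3 or more mice, 61 in 5 or more and 5 in 10 or more. The 5 most widely shared are shown by their most frequent nucleotide form, with bases that the alignment placed between V and J in capitals.
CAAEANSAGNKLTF (TRAJ17): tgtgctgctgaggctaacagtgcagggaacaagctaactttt
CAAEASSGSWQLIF (TRAJ22): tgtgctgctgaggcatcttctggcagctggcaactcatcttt
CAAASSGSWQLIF (TRAJ22): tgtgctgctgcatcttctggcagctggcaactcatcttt
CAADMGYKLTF (TRAJ9): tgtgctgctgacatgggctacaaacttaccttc
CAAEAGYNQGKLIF (TRAJ23): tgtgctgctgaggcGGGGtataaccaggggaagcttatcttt
In the first 4 the alignment placed no base between V and J. The fifth carried 4 guanines there and was also found with the following ends, each in 2 mice.
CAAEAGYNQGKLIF, other form: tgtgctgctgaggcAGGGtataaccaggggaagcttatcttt
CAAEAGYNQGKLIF, further form: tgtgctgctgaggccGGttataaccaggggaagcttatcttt

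Sharing went with few added bases and with several nucleotide forms of the same CDR3. Added bases were absent from 18.9% of the clones of CDR3s found in 1 mouse, 33.6% of those in 2 mice, 41.1% of those in 3 to 4 mice and 60.1% of those in 5 or more mice. The mean number of nucleotide forms per CDR3 was 1.02, 1.68, 2.16 and 3.33 in the same order, to which the number of mice itself contributes. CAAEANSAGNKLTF was found in 13 mice in 3 nucleotide forms and with 3 TRAV4 genes, and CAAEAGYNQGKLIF in 10 mice in 7 forms and with 4 genes. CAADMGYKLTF was found with 5 of the 6 genes. Of all TRAV4 CDR3 sequences, 552 also occurred with TRAV4-4-DV10, among them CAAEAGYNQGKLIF in 12 mice.

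**Figure D5:**
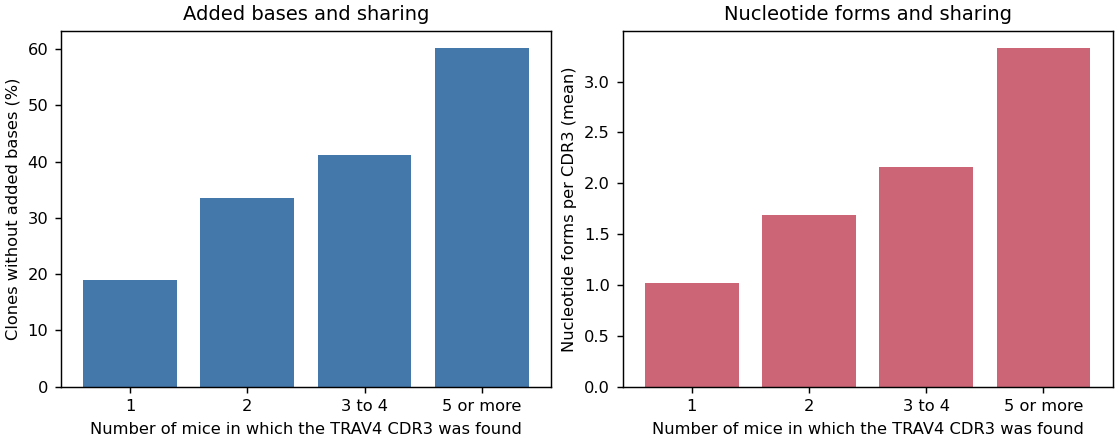
Clones without added bases (%; left) and mean number of nucleotide forms per CDR3 (right) for TRAV4 CDR3s found in 1, 2, 3 to 4 and 5 or more of the 17 mice (bars; no error shown, since clones and CDR3s were pooled over mice). Clones without added bases went from 18.9% to 60.1%.

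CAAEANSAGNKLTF was found in all BIT mice, at 210, 192, 178 and 137 CPM, the count per 1000000 in-frame reads. It was at 204, 0, 134 and 0 CPM in the β5t-KO mice, 0, 169, 140 and 76.8 CPM in the WT mice and 79.9, 0, 39.1, 160 and 144 CPM in the β5i-KO mice. The 160 CPM of β5i-KO replicate 4 rest on 1 molecule. The sequence was thus detected in each genotype, and it was the most abundant TRAV4 CDR3 of BIT mice by mean CPM.

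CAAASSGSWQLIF and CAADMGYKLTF were found in 4 of 4 BIT, 3 of 4 WT and 3 of 5 β5i-KO mice each, and in 0 of 4 β5t-KO mice. In β5i-KO replicate 4, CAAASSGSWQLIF rests on 2 molecules and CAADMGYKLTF on 1 molecule. Other widely shared CDR3s were present in β5t-KO mice. There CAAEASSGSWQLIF was at 0, 0, 110 and 0 CPM, and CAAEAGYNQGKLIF at 150, 0, 124 and 0 CPM. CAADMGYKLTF was at 0, 133, 244 and 146 CPM in WT, 172, 202, 24.3 and 170 CPM in BIT, and 135, 0, 152, 122 and 0 CPM in β5i-KO mice. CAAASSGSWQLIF was at 0, 482, 175 and 191 CPM in WT, 153, 174, 156 and 94.8 CPM in BIT, and 131, 0, 75.5, 68.9 and 0 CPM in β5i-KO mice. Its 482 CPM in WT replicate 2 came from a clone listed as TRAV4D-2, the annotated pseudogene. That assignment is uncertain, because all nucleotide forms of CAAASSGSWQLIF start with TGT. The germline end of TRAV4D-2 and 95.7% of its clones start with TGC. A count of 0 among the 508369 in-frame molecules of the β5t-KO mice allows up to 5.90 molecules per 1000000 over the group (3 molecules), counting error only. Over the BIT mice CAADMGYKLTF was at 188 and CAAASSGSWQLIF at 153 molecules per 1000000. The limit treats molecules as independent, which the molecules of a clone are not. Over all mice the 409 molecules of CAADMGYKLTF came from 16 clones, and the 433 of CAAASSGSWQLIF from 15 clones. The β5t-KO mice held 17395 in-frame clonotypes, against 83049 in the BIT mice. The molecule values therefore do not show how far either sequence was lowered in β5t-KO mice. Both sequences entered the test of CDR3s only through genotypes in which they were present, so their levels are given as a description. β5t-KO mice also had the fewest in-frame clonotypes, and the part of this in the absence of single sequences was not tested.

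The most abundant TRAV4 CDR3s of the other genotypes by mean CPM were of different kinds. In β5i-KO mice it was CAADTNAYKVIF with TRAJ30, found in 8 mice, at 76.2, 297, 0, 0 and 605 CPM in the β5i-KO mice. In WT mice it was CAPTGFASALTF, built with TRAV4-2 and TRAJ35 and found only in WT replicate 1. In β5t-KO mice it was a sequence of 15 residues built with TRAV4N-3 and TRAJ49, found only in replicate 2 at 3446 CPM, which carried 7 added bases.
β5t-KO replicate 2, most abundant TRAV4 CDR3: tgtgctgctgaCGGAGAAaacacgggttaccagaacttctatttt
This clone made up 24.2% of the TRAV4 reads of its mouse, which held 9 TRAV4 clonotypes. The largest TRAV4 clone made up 11.1% in β5t-KO replicate 4, with 22 clonotypes, and 10.7% in WT replicate 1, with 26. In BIT mice, with 186 to 478 TRAV4 clonotypes each, it made up at most 1.77%. The part of the number of clonotypes in these values was not tested.

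The CDR3s that recurred at 10 CPM or more in at least 3 mice of a genotype numbered 33 in BIT, 21 in β5i-KO, 7 in WT and 0 in β5t-KO mice, where the rule takes 3 of 5 mice in β5i-KO and 3 of 4 in the other genotypes. Over all subgroups the same rule gave 3551, 2532, 1154 and 184 sequences, of which TRAV4 made up 0.929%, 0.8294%, 0.607% and 0%. The mean number of TRAV4 clonotypes per mouse was 369, 237, 182 and 65.8 in the same order. With 47 TRAV4 CDR3s that met this rule in some genotype, none through β5t-KO mice, edgeR called 0 in each of the 5 comparisons over 4954 sequences of all subgroups. The share of all sequences called by edgeR was 0.0807% in BIT against β5t-KO mice, 0% in BIT against β5i-KO mice and 0.0202% whenever WT was the reference. Before adjustment, p in edgeR was under 0.05 for 32 of the 47 in BIT against β5t-KO, 8 in BIT against β5i-KO, 14 in BIT against WT, 28 in β5t-KO against WT and 18 in β5i-KO against WT mice. DESeq2 called 32, 5, 12, 27 and 16 in the same order, where it called 50.5%, 7.15%, 17.5%, 42.3% and 20.1% of all sequences. With TMM, edgeR called 32 of the 47 in BIT against β5t-KO mice, where it called 47.8% of all sequences. Without BIT replicate 2, edgeR called 1 of the 37 TRAV4 CDR3s then tested in BIT against WT, 4 in BIT against β5i-KO and 5 in BIT against β5t-KO mice, where it called 4.80%, 4.11% and 9.43% of all sequences. Since no sequence entered the test through β5t-KO mice, a lower level in these mice was built into the selection. More TRAV4 CDR3s met the rule in BIT than in β5i-KO or WT mice, so higher levels in BIT mice were favoured too. DESeq2 called 12 higher and 0 lower in BIT against WT mice, beside 758 higher and 111 lower over all sequences. It called 5 higher and 0 lower in BIT against β5i-KO mice, beside 237 and 117. The direction of these calls is therefore no result about TRAV4.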

How the data were processed

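TCRα transcripts of CD8+ T cells were amplified by the authors from RNA with a SMARTer TCR profiling kit for mouse (Takara) and assembled into clones with MiXCR, whose version and settings are not given in the sources used here. The deposited clone tables gave, per mouse, each CDR3 with its V and J genes and its read count and unique molecule count, both whole numbers and not normalized. Their read fraction columns were not used. Clones were taken as deposited, and a clone was in frame when its CDR3 held no frame shift and no stop codon. A clone's first V gene was used.

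Clonotype counts per TRAV subgroup, gene and V-J join, and read counts per CDR3, were fitted over all features with edgeR 4.0.16 (quasi-likelihood test, R 4.3.3), with library totals as offsets, all 4 genotypes in the fit and no covariate. Features needed 5 clonotypes in 4 libraries, or for CDR3s 10 CPM in 3 libraries of a genotype, and calls had a Benjamini-Hochberg adjusted p under 0.05. The SE of an edgeR log2 fold change was computed as its absolute value divided by the square root of the quasi-likelihood F. Measures per mouse were compared with exact permutation tests between genotypes, and with permutation tests of 100000 resamples across genotypes and between TRAV4 and the remaining repertoire, computed in Python 3.11.15. The log2 ratio of in-frame to out-of-frame shares used a pseudocount of 0.5. All TRAV4 genes were named, with the 5 TRAJ partners of highest mean share. The CDR3s named were the 5 found in most mice and the most abundant of each genotype by mean CPM. DESeq2 1.42.0, TMM, other filters, molecules, reads, thinning to 14772 molecules and leaving out each mouse were alternatives, and merging TRAV4D-3 with TRAV4N-3 was added after the data were seen. Replicate numbers were shared across genotypes. Over 4 same-numbered pairs of WT and β5i-KO mice the deviations from the genotype means correlated at 0.108 to 0.643. Over all 22 same-numbered pairs the median was -0.024. Pairs of unlike number were not compared and the labels were not the source, so whether the numbers pair the mice was not tested. A block for replicate number was used only as an alternative. In the other comparisons at least 1 pair was below 0.1. The edgeR fits of genes, joins and CDR3s, the permutation test of the F ratio and the sign-flip test were tried on simulated data. The members, gene lists and tests were chosen with earlier results of these data known. Depth per mouse is given with the results; p-values and intervals cover the spread between mice or counting error, and reads or molecules of a clone are not independent cells.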

Additional observations from a re-analysis of the deposited data

Results flagged for a closer look

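In 5 of the 68 groups of mice examined (7.35%), a single mouse stood apart from the others of its genotype by Dixon's criterion, which by chance marks about 1 in 20 groups. The mean TRAJ number of TRAV4-3 clonotypes was 19.1 in β5i-KO replicate 5, over 8 clonotypes, against 32.6 to 35.5 in the other β5i-KO mice. The same measure was 45.7 in β5t-KO replicate 2, over 3 clonotypes, against 33.4 to 35.5 in the other β5t-KO mice. β5t-KO replicate 2, with 9 TRAV4 clonotypes, also stood apart in the mean length of its TRAV4 CDR3s, at 14.2 residues against 13.4 to 13.5. Its share of TRAV4 clonotypes without added bases was 44.4% against 35.8% to 37.3% in the other β5t-KO mice. TRAV4-3 took 19.3% of the TRAV4 clonotypes of β5i-KO replicate 2, against 10.9% to 12.1% in the other β5i-KO mice.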

How the results depend on the processing

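Over 68 results and 31 alternative settings, 1126 of 1201 values kept their direction and their side of the threshold, or for counts stayed within 1.5 times, and 53 changed sign. All comparisons of TRAV4 with the remaining repertoire and all 0 counts of called V-J joins were among those that kept. The changes of sign were of log2 fold changes near 0 that passed no test, and the cause was not tested. For TRAV4 in β5i-KO against WT mice the log2 fold change was -0.065 with TMM, -0.037 with DESeq2 and -0.015 to 0.16 when single mice were left out, below 0 without WT replicate 1. TMM and DESeq2 bring the median of the subgroups in BIT against WT mice from 0.19 to 0.02 and 0.05.

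In BIT against WT mice, TRAV4-2 was at -0.097 with DESeq2, -0.086 with TMM, -0.28 with molecules, -0.14 with thinned molecules, -0.39 with reads and -0.072 to 0.17 when single mice were left out. TRAV4-3 was at -0.037 with DESeq2, -0.051 with TMM, -0.12 with molecules and -0.042 with reads. TRAV4D-3 was at -0.072 with DESeq2, -0.12 with TMM, -0.0048 with only the groups compared and -0.082 to 0.30 when single mice were left out, and TRAV4D-4 at -0.013 with DESeq2, -0.051 with TMM and -0.036 to 0.21. In BIT against β5i-KO mice, TRAV4-2 was at -0.14 with thinned molecules, -0.025 with reads and -0.022 to 0.27 when single mice were left out. TRAV4D-3 was at 0.070 with molecules, 0.14 with reads and -0.16 to 0.033, and TRAV4D-4 at -0.058 to 0.10. In β5i-KO against WT mice, TRAV4D-3 was at -0.00067 with DESeq2, -0.012 with TMM and -0.024 to 0.37 when single mice were left out, and TRAV4D-4 at -0.043 with DESeq2, -0.059 with TMM and -0.070 to 0.16. TRAV4-2 was at -0.24 to 0.054 and TRAV4-3 at -0.13 to 0.013 when single mice were left out.

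Counts of called TRAV4 genes were 0 except for 1 (TRAV4D-2) in BIT against β5t-KO mice with molecules and 1 with reads, where 12.1% and 10.1% of all TRAV genes were called. Counts of called TRAV4 CDR3s changed the most, from 0 to 32 in BIT against β5t-KO, 5 in BIT against β5i-KO, 12 in BIT against WT, 27 in β5t-KO against WT and 16 in β5i-KO against WT mice with DESeq2, and to 32 in BIT against β5t-KO mice with TMM, where 47.8% of all sequences were called. When single mice were left out, edgeR called 0 to 1 in BIT against WT, 0 to 4 in BIT against β5i-KO and 0 to 5 in BIT against β5t-KO mice, in each case above 0 only without BIT replicate 2, where 4.80%, 4.11% and 9.43% of all sequences were called.

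The adjusted p of mean TRAV4 CDR3 length across genotypes was 0.0493 with thinned molecules, 0.0281 with BIT replicate 3 included and 0.0092 to 0.207 when single mice were left out, below 0.05 without β5i-KO replicate 2 or 5 or β5t-KO replicate 1 or 3 (permutation tests). In these permutation tests the adjusted p was 0.0342 to 0.207 for clonotypes without added bases, below 0.05 without WT replicate 2 or β5i-KO replicate 5. It was 0.0232 to 0.391 for TRAJ number and 0.0384 to 0.221 for charge, both below 0.05 only without β5t-KO replicate 3.

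With the replicate block, the log2 fold change of TRAV4 in β5i-KO against WT mice was 0.11 (edgeR adjusted p = 0.721) and no call changed. In these genotypes all same-numbered pairs correlated above 0.1. In the other comparisons the correlations of same-numbered pairs ran from -0.532 to 0.495. There the log2 fold change of TRAV4 in BIT against β5t-KO mice was 0.37 (edgeR adjusted p = 0.128) and that of TRAV4D-3 in BIT against β5i-KO mice was 0.031, and the count of called TRAV4 genes, joins and CDR3s was 0 in each comparison. The number of clonotypes limits the β5t-KO mice most, with 9 to 126 TRAV4 clonotypes each, although the library with the fewest molecules was that of β5i-KO replicate 4.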
